A study of Rattus norvegicus with 12 samples.

Results

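The respiratory chain genes of the rat were measured by RNA sequencing around implants of 2 materials at 2 and 4 weeks. The genes were taken from the deposited expression table by symbol, as every row whose symbol begins with Nduf followed by a, b, c, s or v, is Sdha, Sdhb, Sdhc, Sdhd or Cyc1, begins with Uqcr, Cox4 to Cox8 or Atp5, or names a mitochondrially encoded subunit. Rows named LOC or AABR were left out. The pattern caught 111 rows with 108 symbols, of 21797 genes in all. Of the 108 symbols, 82 named nuclear-encoded subunits and 13 were the mitochondrially encoded subunits. A further 10 were assembly or other factors (Ndufaf1 to Ndufaf7, Atp5s, Atp5sl and Cox7a2l) and 3 were copies of other genes (Ndufv3-ps1, Cox6c-ps1 and Ndufb4l1).

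The inner mitochondrial membrane carries 4 electron-transferring complexes and an ATP synthase. Complex I (Nduf genes and the Mt-nd genes) and complex II (succinate dehydrogenase, the Sdh genes) feed electrons into ubiquinone, complex III (Uqcr genes, Cyc1 and Mt-cyb) passes them to cytochrome c, and complex IV (Cox genes, Mt-co1, Mt-co2 and Mt-cox3) hands them to oxygen. The proton gradient made on the way drives complex V (Atp5 genes, Mt-atp6 and Mt-atp8). Complex II is the only one of them built from nuclear genes alone; the others need products of both genomes, which are transcribed by separate polymerases in separate compartments. Wound macrophages, white and brown fat and muscle fibres are known to differ in how much they rely on this chain.

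The control group was implanted with GelMA (gelatin methacryloyl, a hydrogel cured by light) and the test group with MFN+GelMA, an abbreviation left unexplained in the labels; the series' title speaks of a microfiber. Tissue was taken at 2 and 4 weeks (2W and 4W) and named in the labels as subcutaneous tissue or muscle; the sources used here give no strain, sex or age, and both materials contain GelMA, so no group without an implant was compared. Each combination of material and time, written as GelMA 2W and so on, had 3 libraries, numbered 1 to 3. Whether these were separate animals is not stated, so the p-values reflect the spread among these libraries alone, which may be technical in origin.

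The count-like values of a library summed to between 11174499 and 13025655, and log2 levels of all tested genes correlated at 0.941 to 0.98 within groups and 0.876 to 0.962 between them. Levels are given as FPKM, in which fragments are scaled to transcript length and library size. Skeletal muscle markers were low except in 1 library. Their summed level was 1063 FPKM in MFN+GelMA 2W replicate 2 and between 13.7 and 41.9 FPKM in the other 11. In those 11 Acta1, skeletal actin, was at 0.662 FPKM or less. GelMA 4W replicate 2 had a summed white adipocyte level of 14560 FPKM against 2681 and 2771 FPKM in its group. GelMA 2W replicate 3 had the lowest summed endothelial level, 135 FPKM against 150.4 to 424.5 FPKM elsewhere. Counts given first below were also obtained without these 3 libraries. In bulk tissue, fewer cells of a type and less RNA per cell cannot be told apart.

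Transcripts of the 82 nuclear subunits took 0.996% to 1.46% of all FPKM and were least abundant in the GelMA 2W libraries. Their summed level was 6407, 6715 and 6178 FPKM in GelMA 2W, 7282, 6835 and 7895 FPKM in MFN+GelMA 2W, 7260, 9187 and 7235 FPKM in GelMA 4W and 8517, 9476 and 9851 FPKM in MFN+GelMA 4W. The group means were 6433 ± 269.5, 7337 ± 532.2, 7894 ± 1120 and 9281 ± 688 FPKM (SD, n = 3 each). The MFN+GelMA libraries lay above the GelMA libraries at 2 weeks without overlap, but narrowly. The lowest of them, replicate 2 with the muscle markers, had 6835 FPKM against at most 6715 FPKM in GelMA 2W. At 4 weeks GelMA 4W replicate 2, the library with the high fat markers, lay above the lowest MFN+GelMA 4W library.

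The 13 mitochondrially encoded genes were 15.4 to 28.4 times as abundant in FPKM as the nuclear set, and in 3 of the 4 groups varied more relative to their mean. Their summed level was 171936, 161510 and 100423 FPKM in GelMA 2W, 155301, 131569 and 140437 FPKM in MFN+GelMA 2W, 154630, 183304 and 185412 FPKM in GelMA 4W and 241710, 145524 and 164750 FPKM in MFN+GelMA 4W. The lowest value was in GelMA 2W replicate 3 and the highest in MFN+GelMA 4W replicate 1, and in both comparisons of the materials the groups overlapped. As a share of the count-like total, where long genes weigh more, the set held 7.85%, 7.50% and 5.49% in GelMA 2W and 8.74%, 9.26% and 9.03% in GelMA 4W, with no overlap. The shares were 7.49%, 6.88% and 6.71% in MFN+GelMA 2W and 10.2%, 7.34% and 8.05% in MFN+GelMA 4W, where the groups overlapped.

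The balance of the mitochondrial and nuclear sets varied within groups more than between them. The ratio of their summed FPKM was 26.83, 24.05 and 16.26 in GelMA 2W, 21.33, 19.25 and 17.79 in MFN+GelMA 2W, 21.3, 19.95 and 25.63 in GelMA 4W and 28.38, 15.36 and 16.72 in MFN+GelMA 4W. The spread within MFN+GelMA 4W alone covered the whole range of the series, with replicate 1 the highest of the 12 libraries and replicate 2 the lowest. On the log2 scale the group means were 4.45 ± 0.38, 4.28 ± 0.13, 4.47 ± 0.19 and 4.28 ± 0.48 (SD, n = 3 each). The materials differed by -0.17 at 2 weeks and -0.19 at 4 weeks, the times by 0.02 in GelMA and -0.001 in MFN+GelMA, all below the pooled SD within groups of 0.33. No p is given for this ratio, as it sums members chosen with earlier results of these data known. The plot of the sums and their ratio shows these values by library.

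**Figure D1:**
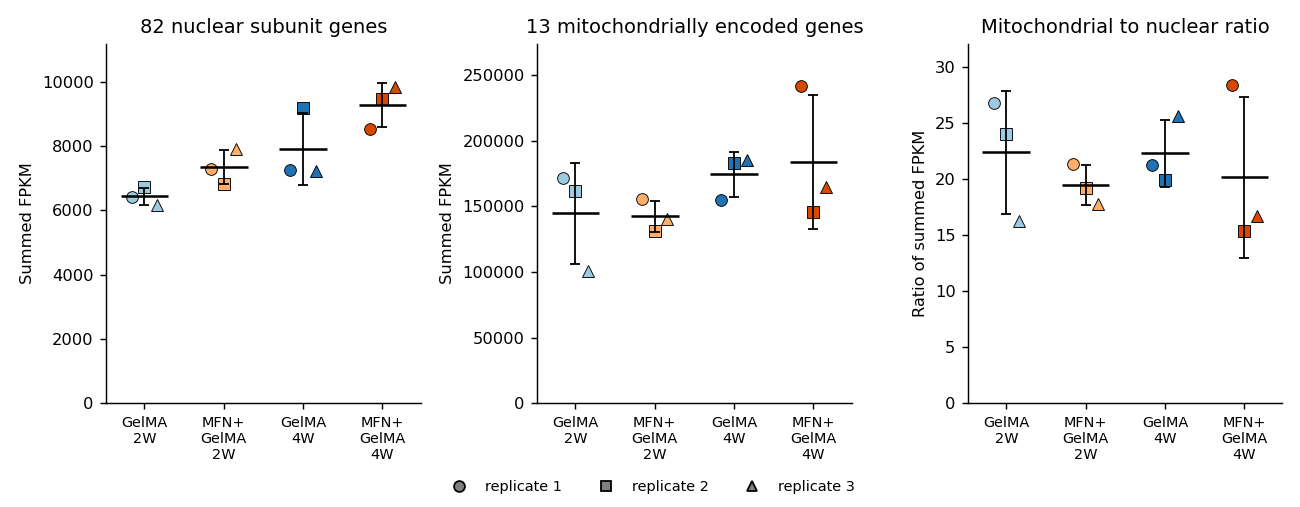
Summed FPKM of the 82 nuclear subunit genes (left) and the 13 mitochondrially encoded genes (middle), and the ratio of the second to the first (right), in each of the 12 libraries. Points are libraries (shape gives the replicate number), horizontal lines are group means and error bars are SDs (n = 3). The nuclear sum is lowest in GelMA 2W at 6178 to 6715 FPKM, and the ratio spans 15.4 to 28.4 in MFN+GelMA 4W alone.

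Single genes were tested with limma on log2(FPKM + 1) over the 12270 genes that reached 1 FPKM in at least 3 libraries, and called at a Benjamini-Hochberg adjusted p under 0.05. Fold changes are on that scale and understate those of low genes. Of the 108 symbols, 100 were tested: 77 nuclear subunits, all 13 mitochondrial genes and the 10 factors. Of the 8 not tested, Cox6c-ps1, Cox7a1, Cox7b2, Cox8c and Ndufb4l1 were listed at 0 in every library, and Cox6a2, Cox8b and Ndufv3-ps1 passed 1 FPKM in too few.

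Between the materials at 2 weeks, 0 of the 100 respiratory chain genes passed the test (limma, adjusted p), against 0.171% of all tested genes called higher and 0.326% called lower in MFN+GelMA. At an unadjusted p under 0.05 there were 19 of the 100, against 1742 of all 12270 tested genes. The median log2 fold change was 0.17 over the 77 nuclear subunits, 0.05 over the 13 mitochondrial genes and 0.01 over all tested genes, and 63 of the 77 and 9 of the 13 were above 0. The nearest to the threshold was Ndufs8, an iron-sulfur subunit of complex I, at 20.7, 20.01 and 21.2 in GelMA 2W and 34.5, 26.9 and 32.6 in MFN+GelMA 2W (log2 fold change 0.57 ± 0.14 SE, adjusted p = 0.0854). All 3 MFN+GelMA libraries lay above all 3 GelMA libraries for this gene, and it was the 1 gene called when the 3 libraries named above were left out, a fit in which 3.15% of all tested genes were called. The row shares its locus with Aldh3b1 and Unc93b1.

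At 4 weeks 14 respiratory chain genes rose in MFN+GelMA against GelMA and 0 fell. Of the 77 nuclear subunits 13 rose, 16.9%, against 15.3% of all tested genes called higher and 9.27% called lower, so the share was near the background. The 13 were Ndufs1, Ndufs8, Ndufa9, Ndufb8 and Ndufb9 of complex I, Sdhb and Sdhd of complex II, Uqcrfs1 and Uqcrh of complex III, Cox6b1, Cox7a2l2 and Ndufa4l2 of complex IV and Atp5a1 of complex V; the 14th was the factor Ndufaf7. The median log2 fold change was 0.21 over the nuclear subunits (61 of 77 above 0), -0.01 over the mitochondrial genes (5 of 13 above 0) and 0.05 over all tested genes. Of all calls 62.3% were higher, a share that was 46.3% when FPKM were rescaled to the sum over genes outside mitochondrial DNA, 53.8% with median-of-ratios scaling and 49.1% with all libraries scaled to a common total; the nuclear median stayed above 0 in each (0.085, 0.145 and 0.099). Without the 3 libraries 24 were called, 12 of them among the 14. Leaving out single libraries gave 8 calls when GelMA 4W replicate 1 was absent, 9 in the absence of either GelMA 4W replicate 3 or the second MFN+GelMA 4W library, and up to 21 in that of GelMA 4W replicate 2. Of all tested genes, 24.6% were called in the fit on all libraries, 25.2% without the 3, 16.4% without GelMA 4W replicate 1, 22.7% and 20% without the pair that left 9, and 20.8% without GelMA 4W replicate 2.

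From 2 to 4 weeks in MFN+GelMA 23 respiratory chain genes rose and 2 fell. Of the 77 nuclear subunits 22 rose, 28.6%, and 2 fell, 2.60%, against 11.2% of all tested genes called higher and 8.11% called lower. The median log2 fold change was 0.32 over the nuclear subunits (69 of 77 above 0), 0.35 over the mitochondrial genes (13 of 13 above 0, 0 called) and 0.01 over all tested genes. By complex, 8 of 35 tested nuclear subunits rose in complex I, 3 of 4 in complex II, 3 of 9 in complex III, 4 of 14 in complex IV and 4 of 15 in complex V. Under the scaling to a common total the median of all genes moved to -0.12, the nuclear median to 0.17, and 11 nuclear subunits rose; the share of all calls that were higher went from 58% to 37%, and to 45.3% with the scaling to genes outside mitochondrial DNA. Without the 3 libraries 22 of the 100 were called, 19 of them among the 25. Single libraries left out gave 13 (without MFN+GelMA 4W replicate 3), 15 (without the first MFN+GelMA 2W library, or without the second MFN+GelMA 4W library), 16 (without the second MFN+GelMA 2W library) and up to 29 (without GelMA 4W replicate 2). The share of all tested genes called was 19.3% on all libraries, 20.7% without the 3, 12.6% to 14.8% in the fits that left 13 to 16, and 20.3% in the one that gave 29. This comparison shares the MFN+GelMA 4W libraries with the one between materials at 4 weeks, so their calls are not independent.

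From 2 to 4 weeks in GelMA 2 respiratory chain genes rose, Ndufb6 and Ndufb5, and 0 fell, against 0.497% of all tested genes called higher and 1.74% called lower. The medians were 0.26 over the nuclear subunits (72 of 77 above 0), 0.33 over the mitochondrial genes (12 of 13 above 0) and -0.02 over all tested genes. Higher calls made up 22.3% of all calls, and 11.2% with the scaling to a common total, under which both respiratory chain calls were lost and Mt-nd4 was called higher. Both calls were lost when any of the 3 GelMA 2W libraries or GelMA 4W replicate 1 was left out. The Ndufb6 call was also lost in the absence of GelMA 4W replicate 3 or of the first library of either MFN+GelMA group, and the Ndufb5 call without GelMA 4W replicate 2 or without the 3 libraries together. All genes lost calls in some of these fits too: 2.23% were called on all libraries, 0.228%, 0.693% and 1.88% without the first, second and last GelMA 2W library, and 0.0978%, 1.96% and 1.77% without those of GelMA 4W. Without the 3 libraries 3.33% were called. Without the first MFN+GelMA 2W or 4W library the shares were 1.6% and 1.84%. The factor Ndufaf1 was called lower when GelMA 4W replicate 2 was left out (adjusted p = 0.0413) and without the 3 (adjusted p = 0.0475), and Ndufs7 higher when MFN+GelMA 2W replicate 3 was left out (adjusted p = 0.0381).

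The difference of the material effects at 4 and at 2 weeks (the interaction) was called for 3 respiratory chain genes, Ndufs1, Sdhb and Ndufaf7, all with the larger effect at 4 weeks, against 9.1% of all tested genes called higher and 4.98% called lower. Higher calls made up 64.6% of all interaction calls, and 51% with the scaling to genes outside mitochondrial DNA or 53.9% with the scaling to a common total. The median over the nuclear subunits was 0.04, and -0.055 to -0.014 under the 3 other scalings. Leaving out GelMA 4W replicate 1 left 0 calls, leaving out the first library of either MFN+GelMA group left 1, and without GelMA 4W replicate 2, or without the 3 libraries together, there were 8. Of all tested genes 14.1% were called on all libraries, 7.54% without GelMA 4W replicate 1, 10.1% and 8.93% without the first MFN+GelMA 2W or 4W library, 12% without GelMA 4W replicate 2 and 11.9% without the 3. The plot of fold changes by complex sets the 4 simple comparisons side by side.

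**Figure D2:**
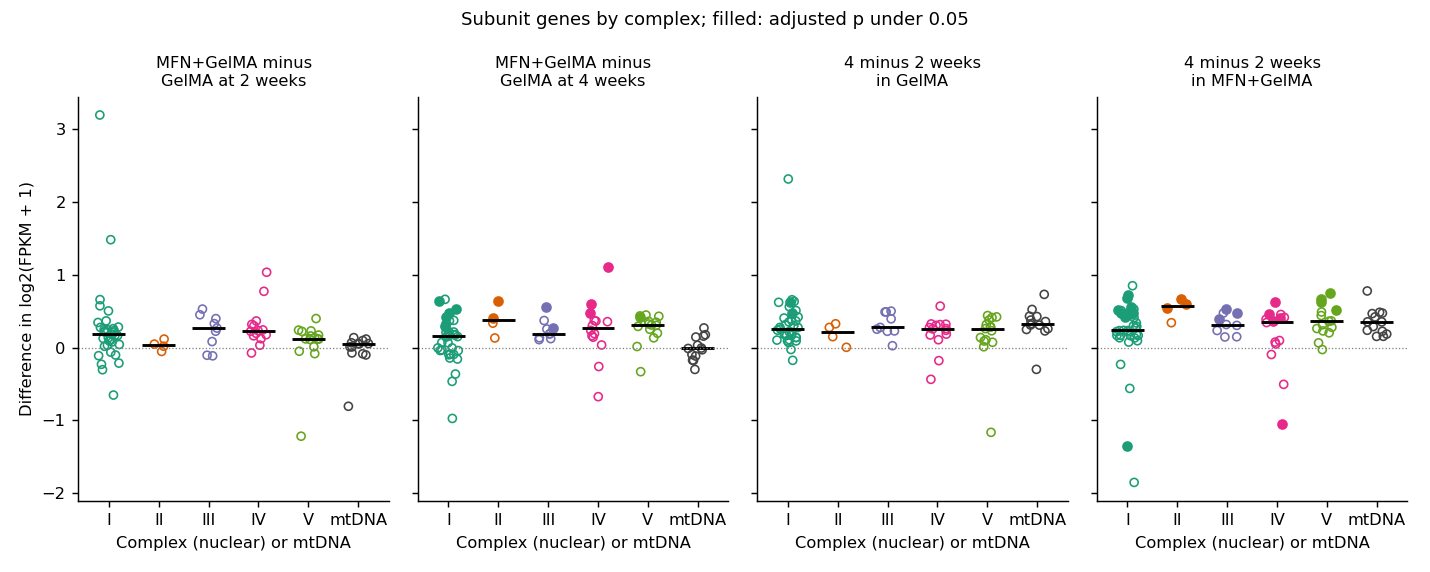
Difference in log2(FPKM + 1) of each tested subunit gene (points) in the 4 comparisons of groups, by complex for nuclear genes and together for the 13 genes of mitochondrial DNA (mtDNA); lines are medians and filled points have a limma adjusted p under 0.05. Filled points are absent at 2 weeks and among the mitochondrial genes, and in MFN+GelMA over time 3 of the 4 complex II subunits are filled.

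Complex II oxidises succinate to fumarate and is both a step of the tricarboxylic acid cycle and an entry point of the chain. Sdhb, its iron-sulfur subunit (chr5:159484370-159505064 in rn6), had in FPKM 94.5, 83.7 and 87.7 in GelMA 2W, 91.01, 88.3 and 95.4 in MFN+GelMA 2W, 77.3, 104 and 86.97 in GelMA 4W and 139.6, 143 and 135 in MFN+GelMA 4W. The 3 MFN+GelMA 4W libraries stood above the other 9, which overlapped one another. Sdhb rose between materials at 4 weeks by 0.64 ± 0.11 (log2 fold change ± SE, limma adjusted p = 0.00134) and over time in MFN+GelMA by 0.60 ± 0.11 (adjusted p = 0.00312). Its interaction was 0.59 ± 0.15 (adjusted p = 0.0249; 6 of 12 fits with a library left out lost the call, the highest adjusted p being 0.0598 when GelMA 4W replicate 1 was absent), and in GelMA over time it was 0.00 ± 0.11.

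Sdhd, a membrane anchor of complex II, had in FPKM 86.9, 85.7 and 78.4 in GelMA 2W, 80.7, 82.3 and 91.3 in MFN+GelMA 2W, 87.4, 100.4 and 90.9 in GelMA 4W and 123, 120.2 and 127 in MFN+GelMA 4W. As for Sdhb, the MFN+GelMA 4W libraries stood above all others. Sdhd rose by 0.41 ± 0.09 between materials at 4 weeks (limma adjusted p = 0.00607) and by 0.54 ± 0.09 over time in MFN+GelMA (adjusted p = 0.00186).

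Sdha, the flavoprotein subunit that binds succinate, had in FPKM 46.03, 54.2 and 51.9 in GelMA 2W, 50.05, 48.3 and 47.8 in MFN+GelMA 2W, 49.1, 90.2 and 52.4 in GelMA 4W and 71.3, 81.3 and 81.2 in MFN+GelMA 4W. GelMA 4W replicate 2 was the highest of all 12 libraries, so the materials overlapped at 4 weeks (0.34 ± 0.19, limma adjusted p = 0.215). Without that library Sdha rose by 0.61 at 4 weeks (adjusted p = 0.00268). Over time in MFN+GelMA the groups did not overlap and Sdha rose by 0.67 ± 0.19 (adjusted p = 0.0287; 6 of 12 fits with a library left out lost the call, the highest adjusted p being 0.0867 when MFN+GelMA 4W replicate 3 was absent). Sdhc, the other membrane anchor, had in FPKM 46.9, 61.6 and 43.8 in GelMA 2W, 50.9, 57.1 and 55.8 in MFN+GelMA 2W, 55.6, 72.2 and 62.9 in GelMA 4W and 56.96, 71.9 and 81.2 in MFN+GelMA 4W, with overlap in each comparison, and was not called in any; its largest difference was 0.34 ± 0.16 over time in MFN+GelMA (adjusted p = 0.161). Summed over the 4 subunits, complex II stood at 273.8 ± 11.64 FPKM in GelMA and 279.6 ± 9.31 FPKM in MFN+GelMA at 2 weeks, and at 309.8 ± 50.67 and 410.5 ± 17.39 FPKM at 4 weeks (SD, n = 3).

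**Figure D3:**
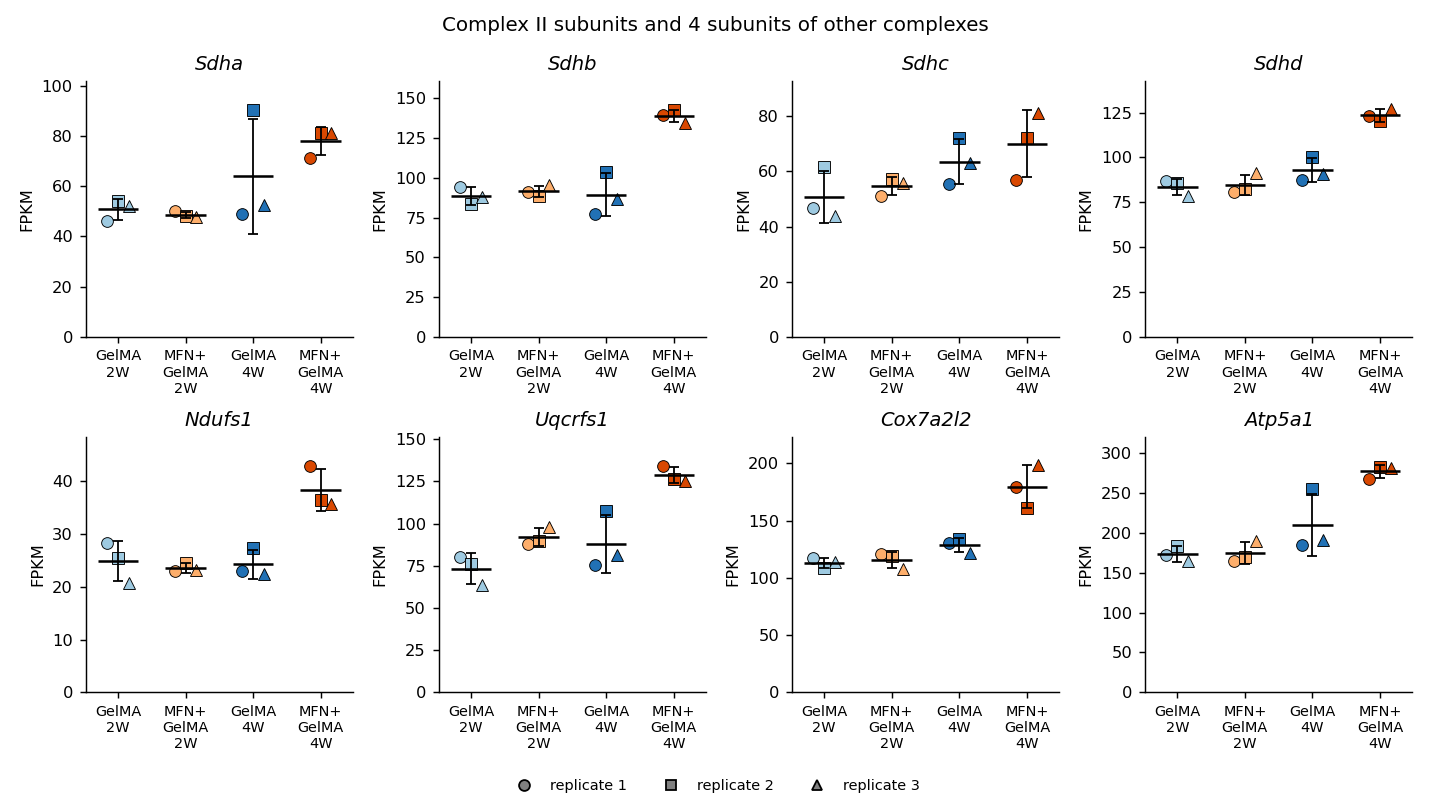
FPKM of the 4 complex II subunits and of 1 subunit each of complexes I, III, IV and V in the 12 libraries; points are libraries, horizontal lines group means, error bars SDs (n = 3). The MFN+GelMA 4W libraries stand above all others for Sdhb, Sdhd, Ndufs1, Uqcrfs1, Cox7a2l2 and Atp5a1, while GelMA 4W replicate 2 is highest for Sdha.

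Promoter sequences bear on these genes because nuclear respiratory genes are known to share binding motifs for NRF1, for the ETS factor GABP (also called NRF2) and for YY1. Of the 82 nuclear subunits 69 matched an entry of the RefSeq promoter table (GRCr8, 250 bases before to 50 after the start). Shown are the promoters of 4 subunits that rose at 4 weeks between materials, and over time in MFN+GelMA, in the fit on all libraries and with each library left out in turn. Cox7a2l2 met the same criterion and its entry holds none of the 3 motifs below; it is not shown because the entry and the row lie on different chromosomes. Capitals mark matches to the NRF1 core GCATGCGC, the ETS core CCGGAAG or the YY1 core AAGATGGCG on either strand. Written 5′ to 3′ on the strand of the gene, they lie at chr5:158547684-158547983 (+) for Sdhb, chr8:59850592-59850891 (-) for Sdhd, chr9:72073556-72073855 (-) for Ndufs1 and chr4:161374121-161374420 (-) for Ndufa9.
Sdhb: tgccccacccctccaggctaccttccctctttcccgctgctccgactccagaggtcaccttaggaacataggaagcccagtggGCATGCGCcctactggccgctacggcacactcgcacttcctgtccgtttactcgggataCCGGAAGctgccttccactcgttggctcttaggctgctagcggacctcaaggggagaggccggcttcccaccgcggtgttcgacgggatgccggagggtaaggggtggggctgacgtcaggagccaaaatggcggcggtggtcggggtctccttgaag
Sdhd: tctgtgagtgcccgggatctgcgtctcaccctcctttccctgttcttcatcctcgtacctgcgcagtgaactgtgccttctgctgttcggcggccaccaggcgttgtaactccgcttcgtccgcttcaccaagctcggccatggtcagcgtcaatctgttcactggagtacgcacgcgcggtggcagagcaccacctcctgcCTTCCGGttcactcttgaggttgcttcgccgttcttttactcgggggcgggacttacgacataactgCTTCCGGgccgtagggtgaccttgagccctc
Ndufs1: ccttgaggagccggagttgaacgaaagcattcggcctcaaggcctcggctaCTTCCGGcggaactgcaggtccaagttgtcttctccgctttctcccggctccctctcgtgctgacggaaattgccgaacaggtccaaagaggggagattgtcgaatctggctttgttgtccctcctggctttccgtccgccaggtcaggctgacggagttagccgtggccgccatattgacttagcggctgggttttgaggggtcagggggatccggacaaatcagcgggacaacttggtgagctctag
Ndufa9: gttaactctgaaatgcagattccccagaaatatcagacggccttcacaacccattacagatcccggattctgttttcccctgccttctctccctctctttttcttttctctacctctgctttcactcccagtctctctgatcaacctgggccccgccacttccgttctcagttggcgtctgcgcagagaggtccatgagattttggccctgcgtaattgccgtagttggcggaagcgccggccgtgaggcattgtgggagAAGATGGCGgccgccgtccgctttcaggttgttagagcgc
Sdhb holds an NRF1 core 167 bases and an ETS core 108 bases before the start. Sdhd holds 2 ETS cores on the opposite strand, 48 bases before and 20 after the start. Ndufs1 holds an ETS core on the opposite strand 199 bases before the start, and Ndufa9 a YY1 core 11 bases after it. The NRF1 core was found in 9 of the 69 promoters (13%) and in 731 of 27457 in the whole table (2.66%). For the ETS core the numbers were 18 (26.1%) and 2531 (9.22%), and for the YY1 core 9 (13%) and 531 (1.93%). These are matches of letters, not binding sites; a promoter counts once per motif, and the ETS and YY1 cores can overlap by their shared letters AAG.

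Complex I, the proton-pumping NADH dehydrogenase, had 35 nuclear symbols, all tested, and its most abundant were Ndufb4 (mean over 12 libraries 180.5 FPKM) and Ndufb10 (118.5 FPKM). Ndufs1, the largest iron-sulfur subunit, had in FPKM 28.3, 25.5 and 20.8 in GelMA 2W, 22.99, 24.6 and 23.1 in MFN+GelMA 2W, 23.04, 27.4 and 22.4 in GelMA 4W and 42.9, 36.5 and 35.6 in MFN+GelMA 4W. The 3 MFN+GelMA 4W libraries stood above the other 9. Ndufs1 rose by 0.64 ± 0.13 between materials at 4 weeks (limma adjusted p = 0.00393) and by 0.68 ± 0.13 over time in MFN+GelMA (adjusted p = 0.00426). Its interaction was 0.70 ± 0.18 (adjusted p = 0.0264; 6 of 12 fits with a library left out lost the call, the highest adjusted p being 0.0694 when GelMA 4W replicate 1 was absent).

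Ndufa9, an accessory subunit near the ubiquinone site, had in FPKM 43.1, 41.4 and 37.2 in GelMA 2W, 47.03, 40.3 and 42.5 in MFN+GelMA 2W, 42.4, 49.7 and 44.9 in GelMA 4W and 62.8, 63.9 and 64.6 in MFN+GelMA 4W. Here too MFN+GelMA 4W stood above every other library, and the gene rose by 0.48 ± 0.10 between materials at 4 weeks (limma adjusted p = 0.0041) and by 0.55 ± 0.10 over time in MFN+GelMA (adjusted p = 0.00271). Ndufb6, an accessory subunit of the membrane arm, followed time in both materials, at 28.9, 27.1 and 24.3 in GelMA 2W, 30.8, 33.8 and 28.9 in MFN+GelMA 2W, 46.5, 36.1 and 42.7 in GelMA 4W and 51.3, 45.3 and 60.5 in MFN+GelMA 4W. All 4W libraries stood above all 2W libraries. Ndufb6 rose by 0.62 ± 0.13 in GelMA (limma adjusted p = 0.0367) and by 0.72 ± 0.13 in MFN+GelMA (adjusted p = 0.00341), and its row shares a locus with Topors on rn6. Ndufb5 rose by 0.48 ± 0.09 in GelMA (adjusted p = 0.0264) and 0.43 ± 0.09 in MFN+GelMA (adjusted p = 0.00894), with all 4W libraries above all 2W libraries again, and shares its locus with a row of no gene name.

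Ndufa12, an accessory subunit of the hydrophilic arm, was the only complex I gene to fall, over time in MFN+GelMA. It had in FPKM 5.86, 6.14 and 6.54 in GelMA 2W, 12.2, 42.9 and 12.9 in MFN+GelMA 2W, 4.602, 5.98 and 11.6 in GelMA 4W and 5.61, 7.58 and 7.59 in MFN+GelMA 4W. The high value was in MFN+GelMA 2W replicate 2, the library with muscle markers. Ndufa12 fell by 1.35 on the log2 scale (SE 0.41, limma adjusted p = 0.0417), and without that library by 0.78 (adjusted p = 0.0905). In all, 6 of 12 fits with a library left out lost the call. Ndufa1, summed over 2 rows with this symbol, ran from 2.12 to 330.5 FPKM with no order by group and was not called. The row named Ndufs5 spans 321 bases of chromosome 2, while RefSeq places Ndufs5 on chromosome 5. The gene ID of the Ndufa13 row (429 bases) belongs to Ndufa13-ps1 in RefSeq. Their levels, at most 6.19 and 5.97 FPKM, may therefore not be those of the subunits. Ndufv1, the subunit that takes electrons from NADH, had in FPKM 24.6, 26.9 and 24.7 in GelMA 2W, 27.6, 26.8 and 32.8 in MFN+GelMA 2W, 21.3, 40.05 and 25.7 in GelMA 4W and 27.7, 32.8 and 38.2 in MFN+GelMA 4W, and was not called in any comparison.

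Complex III, the cytochrome bc1 complex, had 9 nuclear symbols with medians of 0.27, 0.19, 0.28 and 0.32 in the comparisons at 2 weeks, at 4 weeks, over time in GelMA and over time in MFN+GelMA. Uqcrfs1, the Rieske iron-sulfur protein, had in FPKM 80.4, 76.2 and 63.3 in GelMA 2W, 87.7, 89.9 and 98.2 in MFN+GelMA 2W, 75.6, 108 and 81.2 in GelMA 4W and 134, 127 and 125 in MFN+GelMA 4W. It was highest in the 3 MFN+GelMA 4W libraries, and rose by 0.56 ± 0.13 between materials at 4 weeks (limma adjusted p = 0.0107, 0.0517 without GelMA 4W replicate 1) and by 0.48 ± 0.13 over time in MFN+GelMA (adjusted p = 0.0285, lost in 5 of 12 fits with a library left out). Uqcrh, the hinge protein, rose at 4 weeks by 0.27 ± 0.09 (adjusted p = 0.0407); that call was lost in 7 of 12 fits with a library left out. Uqcrh and Uqcrb were the most abundant nuclear subunits of the complex (means of 130.4 and 124.6 FPKM). Uqcrb rose over time in MFN+GelMA by 0.53 ± 0.12 (adjusted p = 0.00995); 1 of its 2 rows lies on chromosome 1 of rn6, while RefSeq places the gene on chromosome 7 of GRCr8. Cyc1, the cytochrome c1 that hands electrons to cytochrome c, had in FPKM 29.6, 32.5 and 31.1 in GelMA 2W, 46.6, 44.2 and 44.9 in MFN+GelMA 2W, 39.5, 51.1 and 42.1 in GelMA 4W and 41.04, 51.7 and 59.2 in MFN+GelMA 4W. All other groups stood above GelMA 2W for Cyc1, and the differences were not called (0.53 ± 0.13 between materials at 2 weeks, limma adjusted p = 0.104; 0.49 ± 0.13 over time in GelMA, adjusted p = 0.0885).

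Complex V makes ATP from the proton gradient. Atp5b, the catalytic beta subunit, had in FPKM 273, 286 and 237 in GelMA 2W, 278, 288 and 292 in MFN+GelMA 2W, 292, 485 and 309 in GelMA 4W and 458, 498 and 485 in MFN+GelMA 4W. GelMA 4W replicate 2 stood among the MFN+GelMA 4W libraries and apart from its own group. Atp5b rose over time in MFN+GelMA by 0.75 ± 0.16 (limma adjusted p = 0.00918), and between materials at 4 weeks it was 0.45 ± 0.16 (adjusted p = 0.0688; a rise of 0.68, adjusted p = 0.00149, without GelMA 4W replicate 2). Atp5a1, the alpha subunit, had in FPKM 172, 184 and 165 in GelMA 2W, 165, 169.96 and 189.9 in MFN+GelMA 2W, 185, 255 and 190.3 in GelMA 4W and 267, 282 and 281 in MFN+GelMA 4W. It rose over time in MFN+GelMA by 0.66 ± 0.12 (limma adjusted p = 0.00361) and between materials at 4 weeks by 0.41 ± 0.12 (adjusted p = 0.029; 5 of 12 fits with a library left out lost the call, the highest adjusted p being 0.117 when GelMA 4W replicate 1 was absent). Atp5l, the g subunit of the membrane part, rose over time in MFN+GelMA by 0.62 ± 0.13 (adjusted p = 0.00742). The most abundant nuclear subunits of the complex were Atp5j2 (mean 354 FPKM) and Atp5b (348 FPKM). Atp5f1 ranged from 3.72 to 39.65 FPKM on a locus that 6 other rows share, and is uncertain.

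In complex IV, cytochrome c oxidase, 14 of 19 nuclear symbols were tested, and several come as isoforms that depend on tissue or oxygen. The most abundant were Cox4i1 (mean 395.0 FPKM) and Cox6c (351.5 FPKM). Cox6b1, a subunit on the outer face, rose between materials at 4 weeks by 0.59 ± 0.12 (limma adjusted p = 0.00386) from 164 ± 11.1 to 248 ± 19.8 FPKM (SD, n = 3), and over time in MFN+GelMA by 0.40 ± 0.12 (adjusted p = 0.0356, lost in 4 of 12 fits with a library left out). The symbol covers 2 rows, and RefSeq gives their gene ID to Cox6b1-ps1. Cox7a2l2 had in FPKM 117, 108 and 114 in GelMA 2W, 121, 119 and 107 in MFN+GelMA 2W, 130.04, 134 and 122 in GelMA 4W and 179, 160.5 and 198 in MFN+GelMA 4W. The MFN+GelMA 4W libraries stood above all others, with a rise of 0.47 ± 0.10 between materials at 4 weeks (limma adjusted p = 0.00427) and 0.62 ± 0.10 over time (adjusted p = 0.00137). Its row lies on chromosome 8 of rn6, whereas RefSeq places the gene of that symbol on chromosome 14 of GRCr8, so which gene the row measures is uncertain.

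Ndufa4l2 is known as a hypoxia-induced paralog of Ndufa4, a subunit now counted to complex IV. It had in FPKM 11.3, 7.35 and 11.02 in GelMA 2W, 17.2, 22.4 and 13.4 in MFN+GelMA 2W, 5.63, 10.02 and 5.79 in GelMA 4W and 14.3, 22.7 and 12.8 in MFN+GelMA 4W. The MFN+GelMA libraries stood above the GelMA libraries at both times without overlap. It rose at 4 weeks by 1.11 ± 0.27 (limma adjusted p = 0.0115, 0.0521 without GelMA 4W replicate 1), while at 2 weeks it was 0.77 ± 0.27 (adjusted p = 0.226), and the interaction was 0.34 ± 0.38 (adjusted p = 0.596). Ndufa4 itself ran from 44.2 to 113.9 FPKM and was not called; at 4 weeks it was -0.26 ± 0.25 (adjusted p = 0.482). Ndufa4l2 made up 14.14% ± 5.945 of the pair in GelMA and 22.72% ± 4.965 in MFN+GelMA at 2 weeks, and 8.37% ± 0.338 and 20.59% ± 4.232 at 4 weeks (SD, n = 3). Other genes of the hypoxia response moved beside it at 4 weeks: 7 of 12 rose (58.3%, against 15.3% of all tested genes) and 0 fell (against 9.27%). Among them Car9, a carbonic anhydrase, rose by 2.03 and Ldha, lactate dehydrogenase A, by 1.24. The summed levels of the 12 were 523.5 to 627 FPKM in GelMA and 1159 to 1378 FPKM in MFN+GelMA. At 2 weeks 1 of the 12 rose, Ddit4 (8.33%, against 0.171% of all tested genes). The part of the hypoxia response in the Ndufa4l2 result was not tested.

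Cox4i2, the second isoform of the regulatory subunit 4, known from lung and from contractile vessel cells, fell over time in MFN+GelMA. It had in FPKM 6.59, 9.96 and 3.75 in GelMA 2W, 7.58, 10.1 and 5.25 in MFN+GelMA 2W, 4.66, 8.04 and 4.31 in GelMA 4W and 2.55, 4.23 and 2.601 in MFN+GelMA 4W. The 3 MFN+GelMA 4W values lay below those of MFN+GelMA 2W, and below both other groups except for GelMA 2W replicate 3. The fall was 1.05 on the log2 scale (SE 0.33, limma adjusted p = 0.0435) and was lost in 7 of 12 fits with a library left out, with adjusted p up to 0.139. Cox4i1, the common isoform, rose in the same comparison by 0.36 ± 0.11 (adjusted p = 0.0383, lost in 8 of the 12), at 376, 369 and 364 in MFN+GelMA 2W and 479.8, 464 and 485 in MFN+GelMA 4W. The share of Cox4i2 in the pair was 2.015% ± 0.877 and 2.017% ± 0.618 at 2 weeks and 1.345% ± 0.247 and 0.655% ± 0.215 at 4 weeks, GelMA given first. Pericyte and smooth muscle markers moved with it over time in MFN+GelMA: 5 of 12 fell (41.7%, against 8.11% of all tested genes) and 0 rose (against 11.2%). Of these markers Abcc9, a channel subunit found in pericytes, fell by 1.25. The marker sums were 579.5 to 735 FPKM at 2 weeks and 284 to 410.5 FPKM at 4 weeks. Their part in the result was not tested.

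The muscle isoforms marked 1 library. Cox6a2, the heart and muscle form of subunit 6a, reached 18.7 FPKM in the second MFN+GelMA 2W library and no more than 1.17 FPKM in the other 11. Cox8b, the muscle form of subunit 8 in rodents, stood at 10.8 FPKM in the same library and was listed at 0 in the rest. The non-muscle forms did not stand out there: Cox6a1 had 193, 223 and 268 in MFN+GelMA 2W and Cox8a 185, 150.2 and 154 in MFN+GelMA 2W. This is the library with muscle markers, in which Acta1 was at 275 FPKM. Cox7a1, another muscle form, was listed at 0 in this library too, and a listed 0 can be a failed estimate. Cox6b2, the testis form of subunit 6b, was low throughout (0.599 to 10.3 FPKM) and not called.

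**Figure D4:**
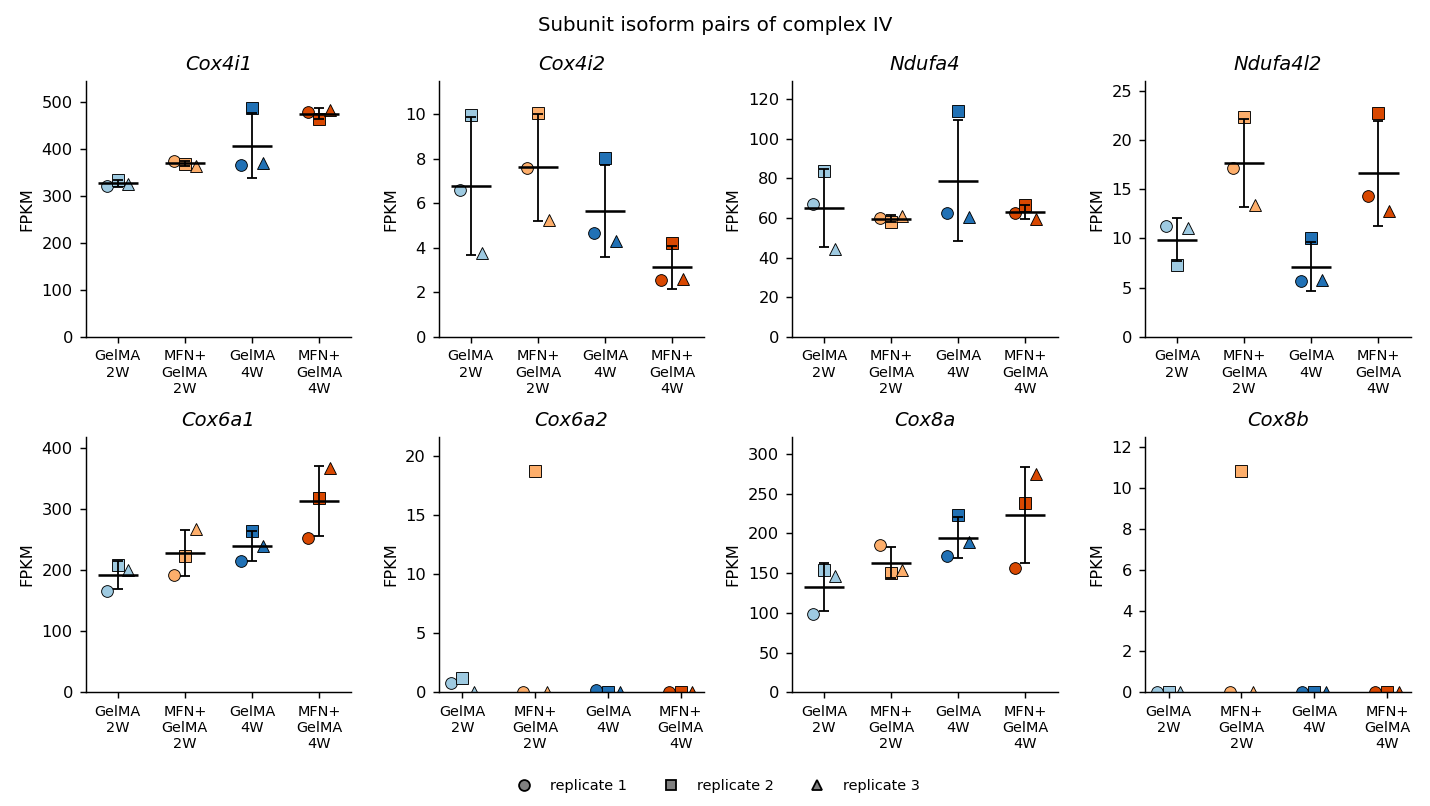
FPKM of 4 isoform pairs of complex IV in the 12 libraries; points are libraries, horizontal lines group means and error bars SDs (n = 3), which are left out for Cox6a2 and Cox8b because of values listed at 0. Ndufa4l2 is higher in MFN+GelMA at both times, the mean of Cox4i2 is lowest in MFN+GelMA 4W, and Cox6a2 (18.7 FPKM) and Cox8b (10.8 FPKM) stand out in MFN+GelMA 2W replicate 2.

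The 13 mitochondrially encoded genes lie on 1 circular chromosome and are transcribed as long precursors that are cut into single RNAs. Mt-co1, the catalytic subunit of complex IV (chrM:5323-6933 of the mitochondrial sequence in rn6), had in FPKM 15584, 15518 and 11656 in GelMA 2W, 15973, 14892 and 15068 in MFN+GelMA 2W, 15454, 18257 and 16038 in GelMA 4W and 20807, 16608 and 18863 in MFN+GelMA 4W. The groups overlapped in each comparison of materials, and Mt-co1 was not called (0.18 ± 0.18 at 4 weeks, limma adjusted p = 0.518). Of the count-like values of the set 27.6% to 33.6% fell on Mt-co1. Mt-co2, which takes electrons from cytochrome c, ran from 13440 to 25310 FPKM and Mt-cox3 from 13230 to 23750 FPKM, neither called. Mt-cyb, the cytochrome b of complex III, ran from 4497 to 10040 FPKM and differed by 0.52 ± 0.21 over time in GelMA (adjusted p = 0.214).

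Of the 7 complex I genes of the mitochondrial genome, Mt-nd4 was nearest to the threshold. It had in FPKM 337, 322 and 215 in GelMA 2W, 332, 249 and 288 in MFN+GelMA 2W, 399, 540.4 and 497 in GelMA 4W and 438, 331 and 394 in MFN+GelMA 4W. All 3 GelMA 4W libraries stood above the GelMA 2W libraries, and the difference was 0.73 ± 0.19 (limma adjusted p = 0.0742; 0.0383 with libraries scaled to a common total). Mt-nd1 ran from 3928 to 8211 FPKM, Mt-nd2 from 3184 to 8524 FPKM, Mt-nd3 from 3165 to 5772 FPKM and Mt-nd5 from 1114 to 2574 FPKM. Mt-nd6, the one subunit gene on the light strand, was the lowest, between 9.13 and 40.3 FPKM, and had 26.4, 40.3 and 11.9 in GelMA 2W, 11.2, 9.14 and 20.99 in MFN+GelMA 2W, 13.1, 25.4 and 20.1 in GelMA 4W and 26.8, 24.1 and 18.7 in MFN+GelMA 4W. It did not follow the other 12: GelMA 2W replicate 3 was the lowest library for each of those 12, and MFN+GelMA 2W replicate 2 for Mt-nd6. Mt-nd6 was -0.81 ± 0.41 between materials at 2 weeks (adjusted p = 0.401).

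Neighbouring mitochondrial genes share loci in the table. Mt-nd4 and Mt-nd4l stand on 1 locus, Mt-nd5 and Mt-nd6 on another, on opposite strands, and Mt-atp8, Mt-atp6 and Mt-cox3 on 1 more, so how reads were divided among them could not be checked. Mt-atp8, a short gene, had the highest level per length, 33690 to 105000 FPKM, and made up 31.45% to 43.42% of the summed FPKM of the set but 1.255% to 2.017% of its count-like values. Mt-atp6, its neighbour, ran from 10070 to 23860 FPKM. Mt-nd4l, another short gene, ran from 2230 to 8774 FPKM, above Mt-nd4 in every library, although the pair stands on 1 locus. The high sum of MFN+GelMA 4W replicate 1 came with the highest Mt-atp8 value, and in the count-like columns the ratio of the sets in that library was 19.2, against 20.3 in GelMA 2W replicate 1. The plot of the mitochondrial genes shows each of them by group.

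**Figure D5:**
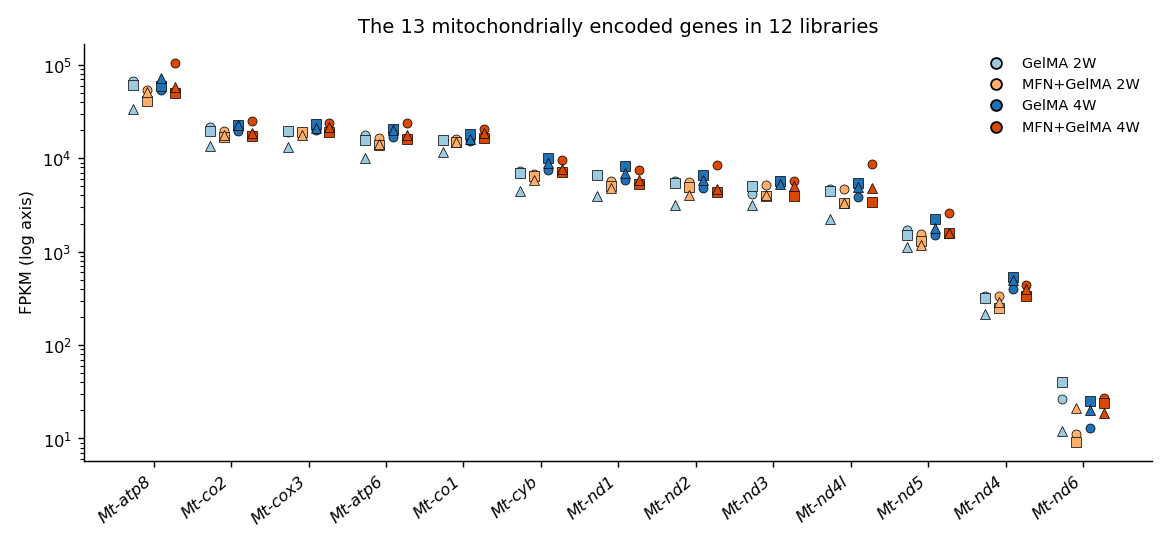
FPKM (log axis) of the 13 mitochondrially encoded genes, ordered by their median, in the 12 libraries; colour gives the group and shape the replicate (circle 1, square 2, triangle 3). Mt-atp8 is highest and Mt-nd6 lowest, and the light blue triangle, GelMA 2W replicate 3, is lowest for all genes but Mt-nd6.

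Factors that build the complexes were caught in part by the symbol pattern. Ndufaf7, a methyltransferase that acts on a complex I subunit, had in FPKM 13.1, 10.6 and 11.99 in GelMA 2W, 11.5, 11.5 and 13.8 in MFN+GelMA 2W, 11.8, 8.77 and 15.8 in GelMA 4W and 25.5, 25.1 and 25.1 in MFN+GelMA 4W. The MFN+GelMA 4W libraries stood apart from the other 9. Ndufaf7 rose by 1.03 ± 0.17 between materials at 4 weeks (limma adjusted p = 0.00127) and by 0.99 ± 0.17 over time in MFN+GelMA (adjusted p = 0.00256), with an interaction of 0.998 (SE 0.24, adjusted p = 0.0206, 0.0512 without GelMA 4W replicate 1). Of a wider list of 41 tested assembly factors, 5 rose (12.2%, against 15.3% of all tested genes) and 0 fell at 4 weeks, with a median of 0.11. Cox17, a copper chaperone for complex IV, rose by 1.15 ± 0.21 (adjusted p = 0.00204) and Sdhaf4, which helps to join Sdha and Sdhb, by 0.77 ± 0.23 (adjusted p = 0.0303).

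Regulators of these genes were taken from a separate list. Of 20 tested genes of mitochondrial biogenesis, transcription and DNA upkeep, 3 rose at 4 weeks between materials (15%, against 15.3% of all tested genes) and 0 fell, with a median of -0.05. They were Ppargc1b, a coactivator of respiratory genes, at 0.784, 0.9998 and 1.35 in GelMA 4W and 3.42, 5.38 and 3.98 in MFN+GelMA 4W (1.35 ± 0.25, limma adjusted p = 0.00242), the nuclear receptor Esrra at 7.51, 8.57 and 9.37 in GelMA 4W and 14.1, 16.6 and 20.4 in MFN+GelMA 4W (0.92 ± 0.18, adjusted p = 0.00305) and Gabpa, the DNA-binding subunit of GABP (0.35 ± 0.11, adjusted p = 0.0416). For Ppargc1b and Esrra the 4-week groups did not overlap. Ppargc1b and Esrra also rose over time in MFN+GelMA (2 of 20, or 10%, against 11.2% of all tested genes). Nrf1 (-0.08 ± 0.20, limma adjusted p = 0.794) and Tfam, which packages mitochondrial DNA and serves in its transcription (-0.06 ± 0.14, adjusted p = 0.786), were not called at 4 weeks. Ppargc1a, the coactivator best known from muscle and brown fat, reached at most 0.271 FPKM and was not tested.

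Among 18 genes of mitochondrial RNA processing and stability, Ptcd3 rose at 4 weeks (1.23 ± 0.27, limma adjusted p = 0.00681), and Ptcd3 and Lrpprc, which stabilises mitochondrial mRNAs (0.42 ± 0.10, adjusted p = 0.0153), rose over time in MFN+GelMA; these were 5.56% and 11.1% of the list, against 15.3% and 11.2% of all tested genes called higher. Ptcd3 stood at 244 to 1191 FPKM, while the 18 genes together summed to 533.9 to 1463 FPKM. This 1 row thus carried much of the list, and what lies behind its high level was not tested. Of 72 tested mitochondrial ribosomal protein genes 6 rose and 1 fell at 4 weeks (8.33% and 1.39%, against 15.3% and 9.27% of all tested genes; median 0.08). Over time in MFN+GelMA 3 rose and 1 fell (4.17% and 1.39%, against 11.2% and 8.11%; median 0.05).

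Pathways that feed the chain and use its products were counted in the same way. Of 22 genes of the tricarboxylic acid cycle 4 rose and 1 fell at 4 weeks (18.2% and 4.55%, against 15.3% and 9.27% of all tested genes; median 0.16). The 4 were the mitochondrial isocitrate dehydrogenase Idh2 (0.70 ± 0.15, limma adjusted p = 0.00513), Dlst of the oxoglutarate dehydrogenase complex, the malate dehydrogenase Mdh2 and the fumarase Fh, and Suclg2 of succinyl-CoA ligase fell by 0.53 (adjusted p = 0.0311). Over time in MFN+GelMA 7 rose (31.8%, against 11.2% of all tested genes; median 0.40). Of 21 tested genes of electron carriers, ATP exchange and uncoupling 6 rose at 4 weeks (28.6%, against 15.3%; median 0.22). Of them Gpd2, which feeds electrons from glycerol phosphate into ubiquinone (0.87 ± 0.15, adjusted p = 0.00201), Atpif1, an inhibitor of ATP synthase (0.76), and the carrier Ucp2 (0.67) had the smallest p. Over time in MFN+GelMA 6 rose (28.6%, against 11.2%; median 0.31). In GelMA over time 1 rose (4.76%, against 0.497% of all tested genes), the ADP/ATP carrier Slc25a4 (0.66 ± 0.14, limma adjusted p = 0.0434). Ucp1, the uncoupler of brown fat, was listed at 0 in every library.

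Cell type markers moved in the comparisons in which respiratory genes were called, and a few also between materials at 2 weeks, where 0 were called. At 2 weeks Zic1 fell, 1 of 2 tested brown adipocyte markers, and so did Pi16, 1 of 10 fibroblast markers. The shares of all tested genes there were 0.171% called higher and 0.326% called lower. Of all tested genes 15.3% were called higher and 9.27% lower between materials at 4 weeks. Over time the shares were 11.2% and 8.11% in MFN+GelMA, and 0.497% and 1.74% in GelMA. In the interaction they were 9.1% and 4.98%. The marker counts below are to be read beside these shares. At 4 weeks 6 of 11 macrophage markers rose in MFN+GelMA (among them Cd68, by 0.86) and Cd163 fell by 1.57, with summed levels of 4303 to 8760 FPKM in GelMA 4W and 14920 to 16060 FPKM in MFN+GelMA 4W. Of 11 endothelial markers 4 fell and 0 rose (sums of 273 to 418 against 150.4 to 189.5 FPKM), and of 12 pericyte and smooth muscle markers 5 fell and 0 rose (503 to 618 against 284 to 410.5 FPKM). Of 10 fibroblast markers 2 rose and 6 fell (8099 to 20600 against 14740 to 17620 FPKM). Of 4 tested skeletal muscle markers Pvalb fell and 0 rose. Of 13 tested white adipocyte markers Lpl rose and Cfd fell, with a median of -2.34. At an unadjusted p under 0.05 there were 9 of the 13, against 4575 of all 12270 tested genes. The sums of the adipocyte markers were 2681, 2771 and 14560 FPKM in GelMA 4W and 6098 to 7441 FPKM in MFN+GelMA 4W, so the groups overlapped through GelMA 4W replicate 2. Over time in MFN+GelMA 6 macrophage markers rose and 2 fell, from sums of 8862 to 9924 FPKM at 2 weeks, 5 endothelial markers fell, and 1 fibroblast marker rose and 5 fell. White adipocyte sums were 1551 to 2012 FPKM in MFN+GelMA 2W and 6098 to 7441 FPKM in MFN+GelMA 4W. Of the 13 markers 2 rose, Lpl and Cidea, and Adipoq was at most 10.35 FPKM in either group. The median log2 fold change of the 13 was 0.325, with a range of -1.161 to 3.237, so the sum does not stand for the whole list. Of the 8 brown adipocyte markers Ucp1 and Elovl3 were at 0 in every library and 2 were tested, Cidea and Zic1. Over time in MFN+GelMA Cidea rose and Zic1 was not called. Between materials Zic1 fell at 2 weeks and, by 2.97, at 4 weeks, and Cidea was not called at either time. Over time in GelMA the macrophage markers Adgre1 and Mrc1 fell (2 of 11, median -0.68, sums of 6904 to 8488 FPKM at 2 weeks), 1 of 13 white adipocyte markers rose, Cidea, and 0 endothelial, pericyte or fibroblast markers were called. In the interaction 6 macrophage markers were called higher and 1 lower, 3 endothelial and 5 pericyte markers lower, and 1 fibroblast marker higher and 4 lower. Pvalb was called lower there too, 1 of 4 tested skeletal muscle markers. In GelMA 4W replicate 2, where Adipoq was at 2118 FPKM, 69 of the 77 tested nuclear subunits were above their median over the 12 libraries, against 33 and 31 in the other GelMA 4W libraries and 52, 71 and 71 in MFN+GelMA 4W. Of all tested genes, 49.29% were above their own median in that library. The shares were 42.92% and 42.61% in the other GelMA 4W libraries and 47.78%, 54.11% and 57.57% in MFN+GelMA 4W. The part of these cell types in the respiratory chain results was not tested.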

How the data were processed

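Total RNA of 12 libraries was extracted with TRIzol, depleted of ribosomal RNA with Ribo-Zero and made into stranded TruSeq libraries, per the labels' protocols. The submitters' processing notes name cutadapt 1.9.3, HISAT2, Cuffdiff and the build rn6; the sources used here give neither the other versions nor the annotation or strand handling. The deposited FPKM values were used for all tests. The authors also deposited count-like values that were not whole (a signal per gene, not counts), which were used for depth and shares only, with no count model.

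Rows sharing a symbol were summed (22062 rows, 21797 genes). The 12270 genes reaching 1 FPKM in 3 or more libraries were tested on log2(FPKM + 1) with limma 3.58.1 (R 4.3.3), with 1 mean per group over all 12 libraries, eBayes with an intensity trend (8 residual and 3.28 prior degrees of freedom), two-sided, Benjamini-Hochberg adjusted over all tested genes and called under 0.05. The steps were tested on simulated data with changes larger than most of the subunit changes given here, so the simulation does not cover those smaller changes. Errors on fold changes are SEs and those on levels SDs. Members, lists, tests and the doubted libraries were chosen with earlier results of these data known. Alternatives were the low-value filter, the pseudocount, 3 scalings, the variance model, a replicate block, rows kept apart, each library or 3 libraries left out, and a threshold of 0.1; the sets were also compared with only the mitochondrial genes that have a locus of their own, which was added after seeing the data.

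Named were all mitochondrial genes, up to 8 called nuclear subunits per direction and comparison by fold change, tissue-dependent isoforms, the 2 most abundant members of each complex, core subunits and up to 3 genes of each other list by p. The other called genes at 4 weeks, Sdhc, Ndufaf7, Nrf1, Tfam, Ppargc1a, the single marker genes and the genes with uncertain rows were named beside this with their values known. Promoter windows came from the RefSeq table for GRCr8; no protein table was used here.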

Additional observations from a re-analysis of the deposited data

Results flagged for a closer look

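Each result here was singled out because the material effect at 4 weeks differed from that at 2 weeks in limma's interaction test, on the log2 scale with Benjamini-Hochberg adjusted p. Among the respiratory chain genes the difference was 0.594 for Sdhb (adjusted p = 0.0249), 0.704 for Ndufs1 (adjusted p = 0.0264) and 0.998 for Ndufaf7 (adjusted p = 0.0206).

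Among assembly factors it was 1.229 for the copper chaperone Cox17 (adjusted p = 0.019) and 1.369 for Sdhaf4 (adjusted p = 0.0193). The coactivator Ppargc1b had 1.59 (limma adjusted p = 0.0147), and Ptcd3, of mitochondrial translation, 1.703 (adjusted p = 0.0159). The Ptcd3 value rests on the row that carried much of the FPKM of its list. Of the mitochondrial ribosomal proteins, Mrps6 had 0.828 (adjusted p = 0.0286), Mrpl23 -0.701 (adjusted p = 0.0309) and Mrps26 -0.831 (adjusted p = 0.0421). In all genes tested 9.1% were called higher and 4.98% lower in this test. No outlier test was run within groups of 3 libraries.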

How the results depend on the processing

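Among the respiratory chain genes, no call was found reversed under the alternatives run. Genes of the other lists were not checked in this way. Summed over the 100 tested genes, the 5 comparisons and the alternatives, calls were gained 100 times and lost 195 times. Between materials at 2 weeks 0 respiratory chain genes were called, 1 without the 3 libraries that stood apart, 1 at a threshold of 0.1 and 0 to 0 with single libraries left out. Of all tested genes 3.15% were called there without the 3 and 2.03% at the threshold of 0.1. Between materials at 4 weeks 14 were called, 9 with libraries scaled to a common total, 24 without the 3 libraries and 8 to 21 with single libraries left out. The shares of all tested genes were 21.5% with that scaling and 25.2% without the 3. Over time in GelMA 2 were called, 1 with that scaling (Mt-nd4), 0 with only the libraries compared in the fit, 1 without the intensity trend, 8 at the threshold of 0.1 and 0 to 3 with single libraries left out. All tested genes had 2.68% called with that scaling and 0.0326% with only the libraries compared. Their shares were 1.8% without the trend and 5.08% at the threshold of 0.1. Over time in MFN+GelMA 25 were called, 15 with that scaling (18.1% of all tested genes) and 13 to 29 with single libraries left out. The interaction had 3, 5 with no filter on low values, 8 without the 3 libraries, 7 at the threshold of 0.1 and 0 to 8 with single libraries left out. Its shares of all tested genes were 9.59% with no filter, 11.9% without the 3 and 21.2% at the threshold of 0.1. The cause of these shifts was not tested. With the replicate number as a block 0, 15, 1, 22 and 4 were called in the 5 comparisons in this order. Of all tested genes 0.546%, 24.6%, 2.23%, 18.7% and 13.8% were called with the block. Deviations of same-numbered libraries correlated at -0.00845, 0.0812 and 0.0334 between materials at 2 weeks, -0.0233, -0.0096 and -0.0396 at 4 weeks, -0.0577, 0.312 and 0.367 over time in GelMA and 0.0229, -0.0062 and 0.00944 in MFN+GelMA. Differently numbered pairs ran from -0.0722 to 0.033, -0.0362 to 0.0719, -0.342 to 0.133 and -0.0278 to 0.0152 in the same order. Over time in GelMA the values 0.312 and 0.367 exceeded every differently numbered pair. The check therefore does not settle whether the numbers pair libraries. The difference in log2 ratio of the 2 sets ranged with single libraries left out from -0.389 to -0.027 at 2 weeks, -0.468 to -0.025 at 4 weeks, -0.197 to 0.165 over time in GelMA, -0.276 to 0.167 in MFN+GelMA and -0.294 to 0.196 for the interaction. With only the mitochondrial genes that have a locus of their own, an alternative chosen after seeing the data, the differences were -0.146, -0.271, 0.019, -0.106 and -0.126. The depth behind a single value is not known, since the count-like values were not whole.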
